A study of Mus musculus with 2 samples.

Results

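Vanins and the enzymes of coenzyme A synthesis were described in 2 cultures of mouse bone marrow-derived dendritic cells, which the labels call GMDC. The list held 8 genes: the vanins Vnn1 and Vnn3, the pantothenate kinases Pank1, Pank2, Pank3 and Pank4, and the downstream enzymes Ppcs and Coasy. The genes were chosen by function with the values of both arrays already known, so their levels are descriptions and carry no test. A gene was taken as measured where a probe set, the group of oligonucleotides that reports a transcript, was annotated with that gene alone. By this rule 7 of the 8 genes were measured, of 22180 genes in all, each by 1 probe set. Pank2 had no probe set annotated to it alone and is not described.

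One culture was the control. The other was grown with medium conditioned by E0771 cells that had been treated with topotecan. E0771 is a mouse mammary tumour line and topotecan is an inhibitor of DNA topoisomerase I. The labels do not give the mouse strain, the age of the animals, the dose, the time in culture or the medium of the control. What the drug did to the tumour cells and what their medium does without it therefore cannot be told apart. With 1 array per condition, the values have no error from replicates, and each difference sets 1 culture against 1 other.

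Coenzyme A carries acyl groups through fatty acid synthesis, fatty acid oxidation and the citric acid cycle, and it is built from pantothenate, or vitamin B5. Pantothenate kinase adds the first phosphate and is the main point of control. PPCS then couples the product to cysteine, a decarboxylase follows, and the bifunctional enzyme COASY completes the molecule. Vanins work outside the cell at the other end of the cycle: they are pantetheinases, which split pantetheine, a breakdown product of coenzyme A, into pantothenate and cysteamine. Vnn1 is anchored to the cell surface and is best known from gut epithelium and liver, where mice that lack it show altered inflammation and redox balance.

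The proximal promoter sequence of 3 measured members is shown because these members differ in the values described below: Vnn3 was far higher with conditioned medium, Pank3 was nearly level, and Ppcs was 1.69-fold lower. Each is the 250 bases before the gene's start in RefSeq, build GRCm38.p6, in the direction of the gene. Of the 8 listed genes, 6 had a sequence in the RefSeq promoter table. Vnn1 and Coasy had none, so no motif, the PPAR repeat included, was searched for them. The windows lie at chr10:23851212-23851461 on the plus strand for Vnn3, chr11:35769245-35769494 on the plus strand for Pank3 and chr4:119422421-119422670 on the minus strand for Ppcs. Capitals mark every match to the 7 motifs listed after the sequences.
Vnn3: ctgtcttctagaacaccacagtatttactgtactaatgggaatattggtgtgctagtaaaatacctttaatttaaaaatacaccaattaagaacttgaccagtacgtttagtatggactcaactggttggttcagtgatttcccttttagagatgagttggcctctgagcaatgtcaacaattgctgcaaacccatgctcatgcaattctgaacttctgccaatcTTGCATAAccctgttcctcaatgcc
Pank3: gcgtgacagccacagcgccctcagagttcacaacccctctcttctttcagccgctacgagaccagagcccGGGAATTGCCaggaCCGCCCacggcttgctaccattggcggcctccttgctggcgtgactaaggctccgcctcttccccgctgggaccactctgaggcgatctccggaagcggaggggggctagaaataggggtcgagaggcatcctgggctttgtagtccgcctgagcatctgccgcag
Ppcs: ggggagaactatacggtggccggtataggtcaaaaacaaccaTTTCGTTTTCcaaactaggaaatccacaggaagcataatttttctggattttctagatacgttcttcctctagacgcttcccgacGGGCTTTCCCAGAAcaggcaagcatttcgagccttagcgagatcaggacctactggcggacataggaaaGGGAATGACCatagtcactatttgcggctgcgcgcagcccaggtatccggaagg

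The motifs were searched on both strands. They were the interferon-stimulated response element (GAAA and GAAA with any 2 bases between), the interferon-gamma activated site TTCNNNGAA, the AP-1 site TGANTCA, an NF-kB-like site (GGG and CC with any 5 bases between), the C/EBP site TTGCNNAA, the GC box GGGCGG, and the direct repeat bound by PPAR with RXR (AGGTCA and AGGTCA with any 1 base between). In the Vnn3 window the only match was to the C/EBP site, beginning 25 bases before the start. That site occurred in 9.56% of all 32851 promoter windows of this length. The Pank3 window held an NF-kB-like match and a GC box, which occurred in 45.8% and 32.7% of windows. The Ppcs window held an interferon-stimulated response element (2.98% of windows), an interferon-gamma activated site (7.02%) and 2 NF-kB-like matches, 1 of which overlapped the interferon-gamma activated site. Matches to the AP-1 site (6.75% of windows) and to the PPAR repeat (0.0335%) were in none of the 3. The windows also differed in base composition: G and C made up 39.2% of the Vnn3 window, 49.6% of the Ppcs window and 63.6% of the Pank3 window, against a median of 52.4% over all windows. Pank1 and Pank4, which were also lower with conditioned medium, had windows that are not shown. Neither interferon motif matched in these, so the interferon matches of Ppcs were not shared by them. Pank1 held NF-kB-like matches only, and Pank4 a GC box only. A match is a description of letters in this stretch and does not show that a factor binds there.

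Both vanins were more than 2-fold higher with conditioned medium, and the other 5 measured members differed by less than 2-fold, each with a value below its control. Vnn3 had a log2 intensity of 3.52 on the control array and 9.72 on the conditioned-medium array. The difference of 6.20 on the log2 scale is a ratio of 73.3. The control value lay at percentile 36.4 of all probe sets of its array, under the filter level of 4.10, which is the median over both arrays together and below which signal may be background. The conditioned-medium value lay at percentile 96.8. Measured against the filter level in place of the control value, Vnn3 was 49.2-fold higher. Genes whose higher value reached the filter level were kept, which left 13712 genes. Among them Vnn3 had the 9th largest difference as deposited and the 12th largest against the filter level.

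Vnn1 stood at 3.67 on the control array and at 5.66 on the other, a log2 difference of 1.99 or 3.97-fold. Its control value was also under the filter level, against which it was 2.95-fold higher. Of the kept genes, 97.2% had a lower difference than Vnn1. Both vanins therefore went from the lower part of the array to above the filter level, but by unequal amounts: the log2 difference of Vnn3 exceeded that of Vnn1 by 4.21 as deposited and by 4.06 against the filter level.

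**Figure D1:**
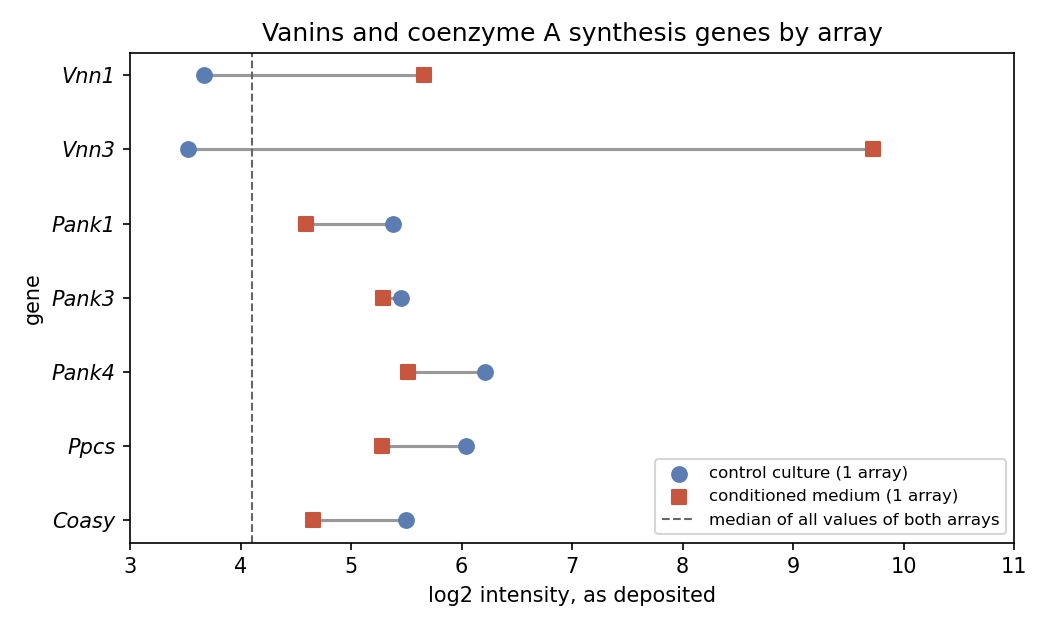
Log2 intensity of the 7 measured genes (horizontal axis) on the control array (circles) and the conditioned-medium array (squares), 1 array each; the dashed line is the median of all values, 4.10. Vnn1 and Vnn3 cross the line from left to right, whereas the other 5 genes lie to the right of it on both arrays, with the square left of the circle.

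The 5 other measured members, Pank1, Pank3, Pank4, Ppcs and Coasy, lay above the filter level on both arrays, and their log2 differences were between -0.84 and -0.16. Among the kinases, Pank1 was 5.38 on the control array and 4.59 on the other, a log2 difference of -0.78. Pank3 was nearly level, at 5.45 and 5.29 (log2 difference -0.16). Pank4, a family member that lacks kinase activity in mammals, was 6.21 and 5.51 (log2 difference -0.70). The first reaction thus had 1 catalytic kinase gene that was lower and 1 that was nearly level, with Pank2 not measured.

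Ppcs, which encodes the enzyme that joins phosphopantothenate to cysteine, was 6.04 on the control array and 5.28 on the other (log2 difference -0.76). Coasy, which encodes the enzyme of the last 2 steps, had the lowest difference of the members, at 5.49 and 4.65 (log2 difference -0.84, or 1.79-fold lower). Pank1, Pank4, Ppcs and Coasy lay within 0.13 of one another in log2 difference. A total of 471 kept genes (3.43%) had differences in the same narrow range.

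Of the 7 members, 2 were at least 2-fold higher, against 8.63% of all kept genes, and 0 were at least 2-fold lower, against 6.84%. At 1.5-fold, the same 2 vanins were higher, against 16.6% of kept genes, and 4 members were lower, against 17.9%. The members were chosen with these values known, and no weight is placed on the counts. The median log2 difference was -0.76 over the 5 members other than the vanins and -0.07 over all kept genes, of which 54.0% were below 0.

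**Figure D2:**
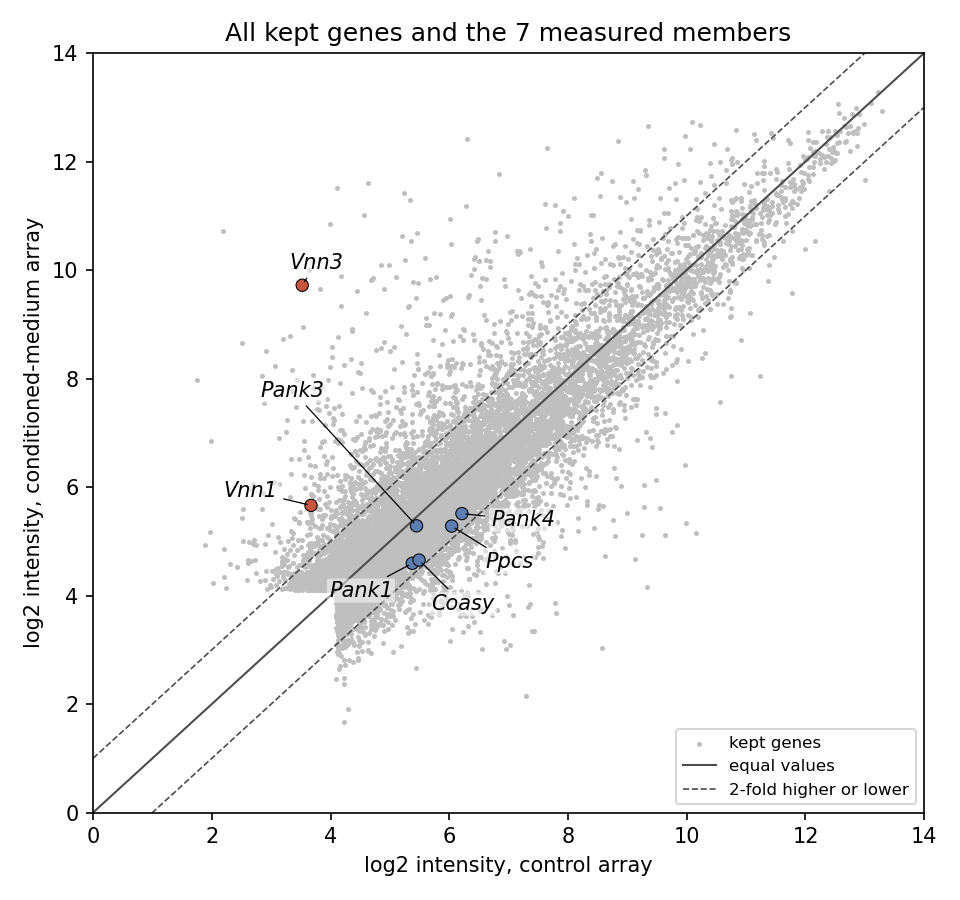
Log2 intensity of each kept gene on the control array (horizontal) and the conditioned-medium array (vertical), with 13712 genes in grey, the vanins in red and the other members in blue; the solid line marks equal values and the dashed lines 2-fold. Vnn3, at 3.52 and 9.72, lies near the upper left edge of the cloud, while the 5 other members lie inside it between the line of equal values and the lower 2-fold line.

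How well probe sets of a gene agree could be judged from other genes only, since each member had 1. Genes with several probe sets whose higher value reached the filter level were used. The SD of the log2 differences of a gene's probe sets, pooled over genes, was 0.46 (787 degrees of freedom). It measures how far probe sets of a gene disagree, which is not the error of a member's difference, and it holds no spread between cultures. The differences of Vnn3 and Vnn1 were 13.5 and 4.34 times that SD. Their control values lay under the filter level, and the SD was not read for such probe sets alone. Those of Pank1, Pank4, Ppcs and Coasy were between -1.83 and -1.53 times the SD, and that of Pank3 was -0.36 times.

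The rest of the coenzyme A route was read from 10 lists of related genes. They held 96 genes, of which 86 were measured and 71 kept. Past 2-fold, 4 of the 71 (5.63%) were higher and 3 (4.23%) lower, against 8.63% and 6.84% of all kept genes, and the median log2 difference was -0.12. Counts in the short lists that follow are too small to be set apart from these shares.

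In the list of synthesis and transport genes outside the members, 5 of 6 were kept and 0 passed 2-fold in either direction. The median of -0.40 is the value of Dcakd, and it was 0.01 over the mean of all probe sets and -0.20 with no filter. Slc5a6, which encodes the sodium-dependent transporter that brings pantothenate and biotin into cells, was 1.62-fold lower, at 4.88 and 4.18. Ppcdc, the gene of the decarboxylase between PPCS and COASY, was nearly level at 6.47 and 6.56, unlike Ppcs and Coasy on either side of it. Aasdhppt, whose product moves the phosphopantetheine arm of coenzyme A onto carrier proteins, had the lowest difference of the list (6.30 and 5.52, log2 difference -0.78). Slc25a16, a mitochondrial carrier gene, was highest as deposited, at 3.71 and 4.18, but its control value lay under the filter level, against which it came after Ppcdc (0.08 and 0.09). Dcakd differed by -0.40 in the probe set used here and by 0.43 in its second probe set, so its direction was not settled. Among proteins that carry the phosphopantetheine arm or work with it, 0 of 6 kept genes passed 2-fold (median -0.42). Mcat, which loads malonyl groups in mitochondria, was highest (6.41 and 7.07), and Fasn, the cytosolic fatty acid synthase gene, lowest (4.62 and 3.86, the second value under the filter level). At a filter at the 75th percentile of all values, which keeps fewer genes, the median of this list was 0.31.

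Genes of coenzyme A breakdown were mixed, with 1 of 4 kept genes at least 2-fold higher and 0 lower (median -0.12). The higher gene was Enpp3, an ectoenzyme gene of nucleotide pyrophosphate hydrolysis, at 4.22 and 5.77 (2.93-fold). The lowest was Nudt7, which encodes a peroxisomal coenzyme A diphosphatase, at 6.48 and 5.63. Vanins act downstream of such cleavage, on pantetheine.

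Lists of genes that use or release coenzyme A held 2 genes past 2-fold, both lower, of 25 kept. Of 8 kept acyl-CoA thioesterase genes 0 passed 2-fold in either direction (median 0.22, from Acot10 at -0.41 to Acot2 at 0.45). Of 8 kept acyl-CoA synthetase genes 0 were higher and 1, Acss1, was at least 2-fold lower. Acss1, a mitochondrial acetyl-CoA synthetase gene, was 9.64 and 8.47 (2.25-fold lower), and over the mean of both of its probe sets it did not pass 2-fold. Slc27a4 was the highest of that list (log2 difference 0.12), and the median was -0.38. Among 9 kept genes of acetyl-CoA production and use, 0 were higher and 1 lower: Acat1, the mitochondrial acetoacetyl-CoA thiolase gene, at 7.77 and 6.08 (3.23-fold lower). Pdhb, a pyruvate dehydrogenase subunit gene, was the highest there (8.57 and 8.62), and the median was -0.40.

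The other product of the vanin reaction is cysteamine, which is oxidised to hypotaurine and bears on glutathione metabolism. Of 6 kept genes of cysteamine and taurine metabolism 0 passed 2-fold (median -0.27). Ado, the gene of cysteamine dioxygenase, was the lowest, at 7.06 and 6.66, and Gadl1 the highest (log2 difference 0.13). Among 12 kept glutathione genes 1 passed 2-fold upward and 0 downward (median -0.01). The higher gene was Slc7a11, the cystine transporter gene, at 4.66 and 6.15 (2.80-fold). Gclc and Gclm, the subunit genes of the rate-limiting enzyme of glutathione synthesis, had log2 differences of -0.58 and -0.50. Gpx4, a lipid peroxide reductase gene, was lowest (-0.70). Of the 12 genes 6 were above 0 and 6 below, and at 1.5-fold 3 were higher and 1 lower.

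Vnn1 is a known target of the nuclear receptor PPAR-alpha in liver, so that receptor and its other targets were read beside it. Ppara itself lay under the filter level on both arrays (3.21 and 3.16). Past 2-fold, 2 of the 10 kept genes of the list were higher and 1 was lower (median 0.10). Angptl4, an inhibitor of lipoprotein lipase, was 4.65 and 6.90 (4.75-fold higher), and Pdk4, a pyruvate dehydrogenase kinase gene, was 4.47 and 5.66 (2.27-fold higher). Acadm, the medium-chain acyl-CoA dehydrogenase gene, was lower, at 8.48 and 6.95. Vanins belong by sequence to the nitrilase superfamily, of which 5 other members were listed, 4 measured and 3 kept. Past 2-fold there were 0 of these 3, with Nadsyn1 the highest (log2 difference 0.23) and Nit1 the lowest (0.10).

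**Figure D3:**
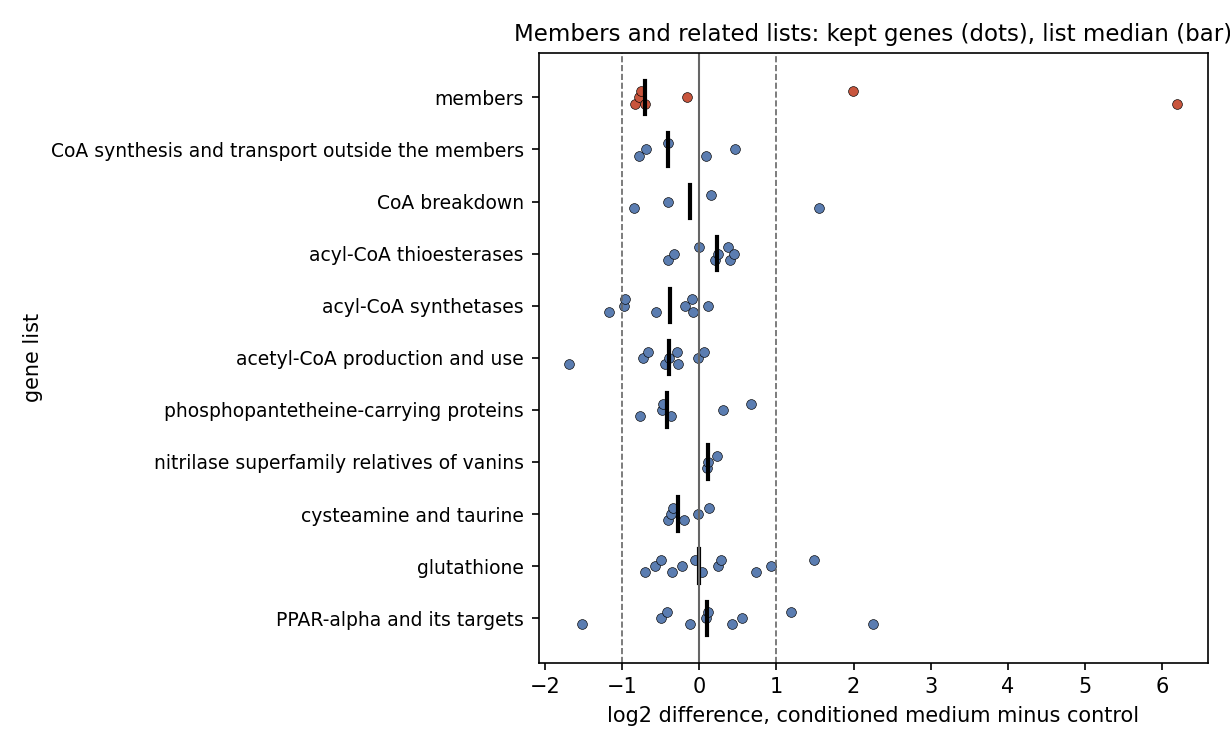
Log2 difference, conditioned medium minus control (horizontal axis), of each kept gene (dots) of the members and of 10 related lists (rows), with bars at list medians and dashed lines at 2-fold. Vnn3 at 6.20 lies far to the right of every other dot; the next highest is Angptl4 at 2.25, followed by Vnn1 at 1.99.

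In the RefSeq gene table Vnn3 and Vnn1 are adjacent protein-coding genes on chromosome 10, between Slc18b1 and the trace amine-associated receptor genes. Of the 8 protein-coding genes nearest in order, 4 on each side, 3 were kept and 0 of these passed 2-fold in either direction. Slc18b1, the neighbour of Vnn3, lay under the filter level on both arrays (3.66 and 3.73). Taar1, the neighbour of Vnn1, did so too (1.94 and 2.56). Eya4 was 3.58 and 4.23, Taar4 4.13 and 3.98, and the ribosomal protein gene Rps12, with 8 probe sets, 13.29 and 12.93. With 8.63% of all kept genes at least 2-fold higher, 3 kept neighbours are too few to set the vanins apart from the region around them.

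**Figure D4:**
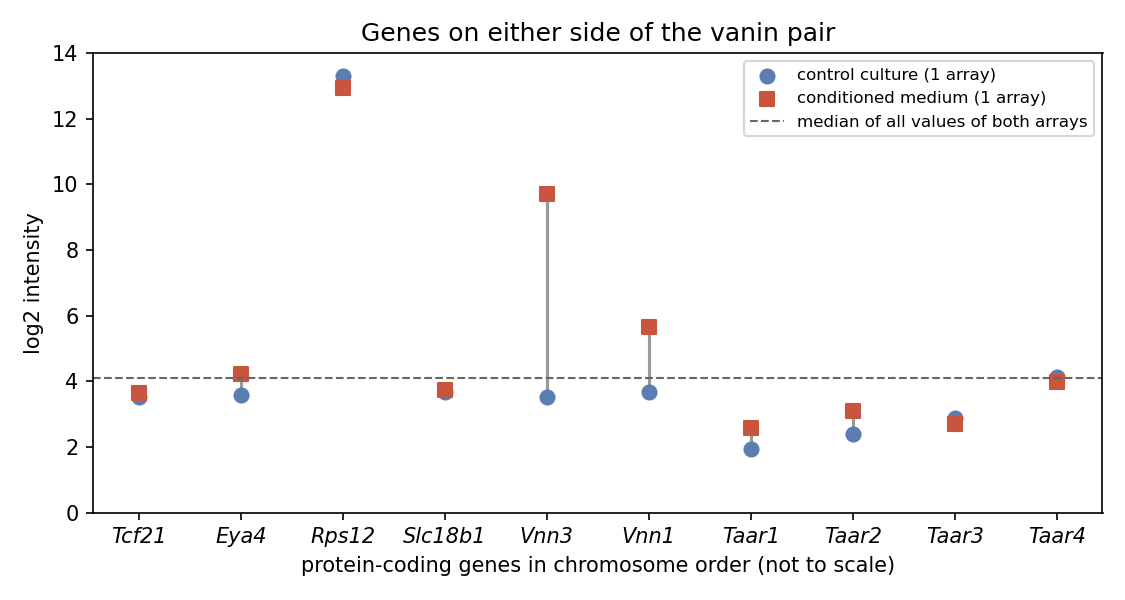
Log2 intensity (vertical axis) of Vnn3, Vnn1 and 4 protein-coding genes on each side, in chromosome order without scale, on the control array (circles) and the conditioned-medium array (squares); the dashed line is 4.10. Vnn3 and Vnn1 are separated clearly between the arrays, and none of the other 8 genes differs by more than the 0.69 of Taar2.

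The kept genes most like Vnn3 in their pair of log2 intensities, by Euclidean distance over the 2 arrays and leaving out provisional gene names, were Apol9b (distance 0.30), Ly6i (0.31), Ifit1bl1 (0.49), Plet1 (0.67) and Trem1 (0.76). Apol9b is an apolipoprotein L family gene (log2 difference 6.36), and Ly6i a Ly6 family surface protein gene, at 3.82 and 9.65. Trem1, which encodes a receptor that amplifies inflammatory signals in myeloid cells, was 4.17 and 9.33. For Vnn1 the nearest were Timd4 (distance 0.04), Pvr (0.08), Hrh2 (0.10), Muc1 (0.13) and Ddx4 (0.14). Timd4, a receptor gene for phosphatidylserine on apoptotic cells, was 3.64 and 5.65. Likeness over 2 arrays is a matter of level and difference only.

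Markers of cell types also differed between the arrays. In RNA of a whole culture, fewer cells of a type and less RNA per cell cannot be told apart. Of the dendritic cell markers, Itgax (8.18 and 7.15) and H2-Ab1 (10.16 and 11.30) lay well above the filter level on both arrays. Zbtb46 lay under it on both (3.65 each), and Flt3 (4.38 and 3.15) and Xcr1 (3.57 and 4.26) on 1 array. Of 10 kept dendritic cell markers 3 were at least 2-fold higher (Dpp4, Irf4 and H2-Ab1). Lower were 4, namely Batf3, Clec10a, Itgax and Flt3 (3 against the filter level, without Flt3). The median log2 difference of the 10 was -0.85. The log2 of the summed intensity of the list was 11.68 on the control array and 11.87 on the other, a sum led on the second array by H2-Ab1. Of 12 neutrophil markers 0 were higher and 8 lower, with a log2 summed intensity of 13.34 and 11.47. That sum was led on both arrays by S100a8 and S100a9. In this list 10 genes were below 0 and 2 above, namely Csf3r (5.70 and 6.59) and Ly6g (6.14 and 6.88). Of 11 macrophage and monocyte markers 1 was higher and 5 lower, with a log2 summed intensity of 13.91 and 14.09. The higher gene was Ly6c2 (10.76 and 11.95), and the 5 lower were Csf1r, Adgre1, Ccr2, Mrc1 and Chil3. The list's median was -0.19, with 8 genes below 0 and 3 above. Those above were Ly6c2, Fcgr1 (11.45 and 12.44) and Cd68 (12.13 and 12.37). Fcgr1 and Cd68 led the sum on both arrays. The part of the markers of all these cell types in the differences of the vanins and the enzymes was not tested.

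Among other cell types, mast cell and basophil markers gave 0 higher and 2 lower of 4 kept, 1 of them, Fcer1a, not against the filter level (log2 summed intensity 8.95 and 8.21; Kit, Mcpt4 and Tpsb2 under the filter level). B cell markers gave 0 higher and 2 lower of 4 kept (9.75 and 7.22, with Cd79a under the filter level). On the control array their sum was led by 1 of the 7 probe sets of Ighm (9.28 and 5.63, log2 difference -3.65). The other probe sets of Ighm had log2 differences between -1.60 and -0.38. T and NK cell markers gave 0 in either direction of 3 kept (6.77 and 6.88, with Cd8b1, Klrb1c and Ncr1 under the filter level). Markers of mammary tumour epithelium, the type of the cells that conditioned the medium, gave 1 higher, Cdh1, and 0 lower of 2 kept, with 7.52 and 10.31. Both the count and the sum rest on 1 of the 2 probe sets of Cdh1, with a log2 difference of 3.79 against 0.55 for the other. Epcam, Krt14, Krt18, Cldn4 and Esr1 lay under the filter level on both arrays. Stromal markers gave 1 higher and 0 lower of 6 kept, with 5 of the 6 below 0. The higher gene was Dcn, at 3.96 and 7.98 (14.7-fold against the filter level). The log2 summed intensity of the list was 12.05 and 11.48. It was led on both arrays by 1 of the 2 probe sets of Col1a2 (11.51 and 10.88). Lum and Pdgfrb lay under the filter level on both arrays. For these lists too, their part in the results was not tested.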

How the data were processed

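RNA of 2 cultures was measured on 1 oligonucleotide array each. Per the labels' protocols, Trizol was used to extract total RNA, from which biotinylated cRNA was made. Affymetrix Expression Console is named in the submitters' processing notes. For its version, algorithm and genome build, the sources used here give nothing. The authors deposited 1 value per probe set and array, taken as log2 intensity from the range (-0.26 to 13.42 on the control array, 0.02 to 13.50 on the conditioned-medium array; medians 4.10 and 4.09). The log base is an inference, and no detection calls were used. With distributions this alike, a change common to most genes would not show.

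Of 41345 probe sets, 23521 had exactly 1 gene symbol in the platform annotation and stood for 22180 genes; all 7 measured members matched the RefSeq gene table of GRCm38.p6 by gene identifier and symbol. A gene with several probe sets was represented by the one with the highest mean. Genes were kept when the higher value was at least 4.10, the median of all values. With 1 array per condition no test was made, and genes were counted by a fixed size of 2-fold. The number of arrays limits the precision.

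The members, lists and alternatives were chosen with earlier results of these data known. The genes named were all members; from each related list the kept genes past 2-fold and the highest and lowest; the 5 kept genes nearest to each vanin; and the 4 protein-coding neighbours on each side. Ppcdc, Slc5a6, Dcakd, Gclc, Gclm and Ppara, and the markers, were added once their values had been seen. Alternatives were quantile normalization, subtraction of a lowess curve (fraction 0.3, 3 iterations), values raised to 4.10, the mean over a gene's probe sets, centring on kept genes, a 75th percentile filter or none, and size limits of 1.5-fold and 3-fold. Marker counts with values raised to 4.10 were added after seeing the data. The counting was tested on simulated data with little noise, with changes far past 2-fold placed only in genes above the filter level. That setting checks the counting code and says nothing about error in these arrays or about genes under the filter level. Software was pandas 2.3.3, numpy 2.4.6, statsmodels 0.14.6 and matplotlib 3.10.9 under Python 3.11.15.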

Additional observations from a re-analysis of the deposited data

How the results depend on the processing

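Each member's log2 difference was recomputed under 5 alternatives, 35 values in all, and 34 of them moved by less than 0.46, the SD between probe sets of a gene. The exception was Vnn3, whose difference was 5.62 with values raised to the filter level, since its control value lay under it. None of the 35 changed sign. Part of this was fixed in advance. Each member had 1 probe set, so the mean over probe sets returned the same value. The 5 members other than the vanins lay above the filter level on both arrays, so raising values to it could not move them. The differences ranged from 5.62 to 6.28 for Vnn3, from 1.56 to 2.06 for Vnn1, from -0.18 to -0.09 for Pank3 and from -0.85 to -0.77 for Coasy. The count of members at least 2-fold higher was 2 under all 9 alternatives, and that of members lower was 0 under all but the threshold of 1.5-fold, where it was 4. Of 180 recomputed counts of the related lists, 164 stayed within 1.5 times and 13 of the other 16 came from another fold threshold. Most list counts were 0 in the main analysis, and a 0 that stayed 0 is among the 164, which therefore say little about stability. Over all kept genes, the counts were 2274 higher and 2458 lower at 1.5-fold, and 568 and 290 at 3-fold. No paired analysis was possible because each condition held 1 array. The signal of both vanins in the control limits their folds, and without replicates the small differences of the other members cannot be set against the spread between cultures.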
